A study of Mus musculus with 38 samples.

Results

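The ubiquitin ligases of the HECT class other than Ube3a were followed here through 9 genes, Ube3b, Ube3c, Huwe1, Nedd4, Nedd4l, Itch, Wwp1, Hectd4, and Herc1. The members were taken by gene symbol from the read count table of a mouse RNA-seq study, and all 9 symbols were found once among its 54165 genes. All 9 also stayed in the tests of both tissues, from which a gene was dropped if 2 or more libraries gave it under 100 reads. The rule itself reads gene symbols only.

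A HECT ligase takes activated ubiquitin from a conjugating (E2) enzyme onto a cysteine of its own HECT domain and then passes it to the substrate, which marks that protein for the proteasome or for another fate. The parts of the protein outside the HECT domain choose the substrate, and they set the families apart. Ube3b and Ube3c are named with Ube3a, the ligase lost in Angelman syndrome and present in extra copies in dup15q syndrome. Nedd4, Nedd4l, Itch, and Wwp1 carry WW domains that bind proline-rich motifs of membrane proteins and adaptors. Huwe1, Hectd4, and Herc1 are very large proteins, and Herc1 is known for the tambaleante mouse, in which Purkinje cells die. The question put to the data was whether any of these relatives is expressed at another level when Ube3a is overexpressed, in either tissue or in either sex.

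The mice were adult and on the FVB/NJ background. Ube3a2X mice were homozygous for a transgene of Ube3a, irrespective of the parent of origin, and WT littermates were the controls. All Ube3a2X mice come from 1 line, and its extra Ube3a carries a C-terminal tag, whose effect on ligase activity the study leaves unsettled. The prefrontal cortex (PFC) gave 20 libraries, 5 for each combination of genotype and sex, and the hypothalamus (Hypo) gave 18, namely 4 WT females, 4 WT males, 5 Ube3a2X females, and 5 Ube3a2X males. The 38 libraries came from 25 mice, and 13 mice gave both tissues. PFC tissue was taken by micropunch and Hypo tissue by excision, and the RNA kit and the amount of input RNA also differed between the tissues, so tissue, dissection, and preparation cannot be told apart.

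Counted reads per PFC library spanned 36.9 to 69.1 M, with a median of 57.6 M. Hypo libraries spanned 39.0 to 380.8 M, with a median of 68.9 M. The RNA integrity number (RIN) spanned 6.7 to 8.9 for PFC libraries (median 7.6) and 6.8 to 9.3 for Hypo libraries (median 8.95). The median ratio of 5′ to 3′ coverage was 0.442 for the PFC and 0.735 for the Hypo. RNA quality thus differed along with the tissue. RIN was in the fit across tissues and this ratio was not, and its part in the tissue differences was not tested. Each of the 9 members had at least 1256 reads in every library, so the spread between mice and not the sampling of reads set the precision. Levels are given in CPM, counts scaled to a common library size, on 1 scale of normalization over all 38 libraries. Ube3a itself stood at 191 to 269 CPM in the WT and 666 to 2249 CPM in the Ube3a2X libraries of the PFC, and at 109 to 352 and 729 to 1693 CPM in those of the Hypo, so no library overlapped the other genotype. Reads of the transgene and of the endogenous gene are not told apart in these values. The tissue labels were borne out by their markers, since a list of 6 cortical neuron genes summed to 1977 to 2580 CPM over PFC libraries against 8.28 to 20.2 CPM over Hypo libraries. A list of 7 hypothalamic genes summed to 0.726 to 1.91 CPM and 401 to 2030 CPM, respectively.

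One library, Hypo WT female 471, stood apart and is given here before the results because it touches every comparison with the Hypo. Its markers of the pituitary, the gland attached below the hypothalamus, summed to 4834 CPM against 15.1 to 923 CPM in the other Hypo libraries, and its hypothalamic list (2030 against 401 to 792 CPM) and blood list (317 against 59.3 to 239 CPM) were also the highest of the tissue. Its oligodendrocyte list was the highest as well (5398 against 3122 to 4657 CPM), and its excitatory neuron list was the lowest (587 against 841 to 1076 CPM). It had the fewest reads of the tissue (39.0 M), the lowest 5′ to 3′ ratio (0.489), a share of coding bases of 37.5% against 46.2 to 51.1% in the other Hypo libraries, and a RIN of 9.3. All 9 members had their lowest Hypo value in this library. The same was true of 16 of the 17 other HECT genes listed here and of 39.3% of the 13964 genes tested in the Hypo. Herc1 stood at 89.5 CPM there against 258 to 429 CPM in the other 17 libraries, Huwe1 at 247 against 520 to 854 CPM, and Ube3b at 33.4 against 44.1 to 56.3 CPM. Relative to the median of the other Hypo libraries the members ranged from 0.295 (Herc1) to 0.690 (Ube3b) in this library. What part the marker signals and the RNA quality have in these values was not tested. The fitted comparisons of the members that include it are therefore given with and without it, some as ranges and counts.

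The members differed in level across the family, and Nedd4 stood above the others. To compare genes, CPM was divided by the length of all exons of a gene in kilobases, which lowers the value of a gene with many rarely used exons. In the WT PFC Nedd4 (chr9:72662346-72749852, GRCm38) had 56.1 ± 3.37 CPM per kilobase (SD, n = 10). Nedd4 also ranked first of 27 HECT genes, Ube3a included, in both tissues. It was followed in the PFC by Ube3b (chr5:114380607-114421169) with 25.6 ± 3.42, Hectd4 (chr5:121220219-121368577) with 19.2 ± 2.23, and Huwe1 (chrX:151800807-151935417) with 16.96 ± 1.40 CPM per kilobase. The single libraries of these 3 overlapped from each gene to the next. Ube3c (chr5:29569242-29676092) followed with a mean of 13.4 ± 0.563 CPM per kilobase and overlapped neither neighbour in this order. Its libraries (12.8 to 14.6) did overlap those of Hectd4 (from 14.4) and Herc1 (up to 13.3). The lowest members of the WT PFC were Nedd4l (chr18:64887705-65217828) at 11.5 ± 1.03, Herc1 (chr9:66350450-66508775) at 11.2 ± 1.38, Wwp1 (chr4:19608303-19708993, minus strand) at 10.8 ± 0.764, and Itch (chr2:155133509-155226855) at 8.95 ± 1.08 CPM per kilobase, each of which overlapped the next. Apart from Wwp1 all members lie on the plus strand. Ube3a in the same WT libraries had 11.3 ± 1.19 CPM per kilobase, a mean that lay between those of Nedd4l and Herc1.

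In the WT Hypo the order was another. Nedd4 stood at 72.3 ± 16.01 CPM per kilobase (SD, n = 8), or 77.7 ± 5.17 in the 7 libraries without WT female 471. Huwe1 (24.9 ± 1.98) and Hectd4 (20.3 ± 2.32) came next in these 7 libraries and overlapped each other. Ube3c (11.3 ± 0.747), Herc1 (10.7 ± 0.892), Wwp1 (10.4 ± 0.634), Ube3b (9.13 ± 0.647), Itch (8.21 ± 0.836), and Nedd4l (7.10 ± 0.540) then formed a series in which every gene overlapped the next. Ube3b was thus the second of the 9 in the PFC and the seventh in the Hypo.

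**Figure D1:**
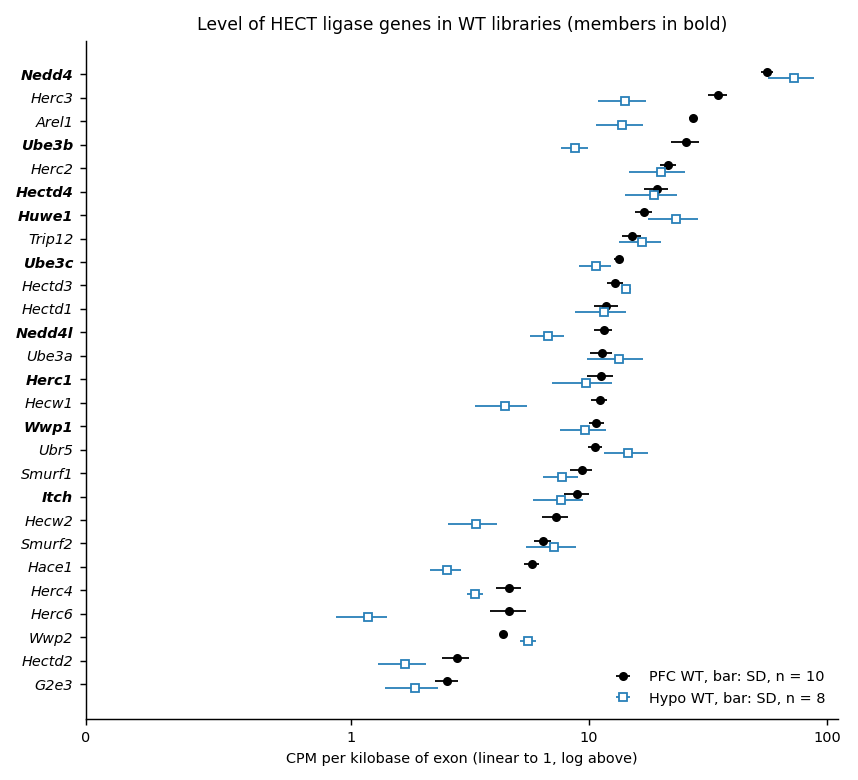
Level of the 27 HECT genes in the WT libraries, in CPM per kilobase of exon, on an axis that is linear up to 1 and logarithmic above. Points are means with SD (circles: PFC, n = 10; squares: Hypo, n = 8), and the 9 members are in bold. Nedd4 is the highest in both tissues, and Ube3b lies at 25.6 for the PFC and at 8.78 for the Hypo.

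The first comparison was that of the tissues. It was made over all 38 libraries with the 8 groups of tissue, genotype, and sex and RIN in the model, and an effect was called at an edgeR adjusted p under 0.05. Of the 9 members 5 were called, against 68.4% of all 14219 genes tested. Higher in the PFC were 3 members, Ube3b, Nedd4l, and Ube3c, where 32.8% of all genes were called in this direction, and lower were 2, Huwe1 and Nedd4, against 35.6%. The median difference of the members was 0.22 on the log2 scale and that of all genes −0.02. With the mouse as a fixed block in the 13 mice that gave both tissues, a fit in which 6047 of 14508 genes were called, Ube3b (1.43, edgeR adjusted p = 1.84e-05) and Nedd4l (0.76, edgeR adjusted p = 0.00543) were called, while Ube3c (0.27, edgeR adjusted p = 0.0562), Nedd4 (−0.38, edgeR adjusted p = 0.0607), and Huwe1 (−0.39, edgeR adjusted p = 0.135) were not. In bulk tissue a lower count from fewer cells of a type and from less RNA per cell cannot be told apart. The cell type makeup differed along with the tissue, as the neuronal lists above show, and the summed list of 6 oligodendrocyte markers spanned 958 to 3358 CPM over PFC libraries and 3122 to 5398 CPM over Hypo libraries. What part this has in the differences was not tested.

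Ube3b, a calmodulin-binding ligase that is mutated in the human Kaufman oculocerebrofacial syndrome, differed most. It ranged from 110 to 171 CPM in the PFC (median 135 CPM) and from 33.4 to 56.3 CPM in the Hypo (median 48.2 CPM), with no overlap between the tissues. The difference was 1.47 on the log2 scale (SE 0.083, 95% interval 1.30 to 1.64, edgeR adjusted p = 2.07e-17), and without Hypo WT female 471 it was the same to 2 decimals. All 13 mice that gave both tissues had more Ube3b in the PFC, by 1.19 to 1.79 on the log2 scale.

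Ube3c, which works at the proteasome and lengthens ubiquitin chains on proteins that resist breakdown, showed a smaller difference in the same direction. Its PFC libraries spanned 119 to 154 CPM (median 126 CPM) and its Hypo libraries 66.5 to 116 CPM (median 106 CPM), again without overlap. The difference was 0.31 (SE 0.070, edgeR adjusted p = 0.000185), and 0.30 (SE 0.046) without Hypo WT female 471. In 13 of 13 mice with both tissues Ube3c was higher in the PFC, by 0.11 to 0.53 on the log2 scale. Across the family 2 of 9 members had no overlap between the tissues, against 25.9% of all genes.

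Among the WW-domain ligases the 4 members went different ways. Nedd4l, which removes sodium channels from the cell membrane, ranged from 175 to 301 CPM in the PFC (median 206 CPM) and from 75.9 to 178 CPM in the Hypo (median 129 CPM). Only the Hypo library of Ube3a2X male 238, with 178 CPM, reached into the range of the PFC. The difference was 0.77 (SE 0.103, edgeR adjusted p = 4.42e-08), or 0.76 (SE 0.084) without Hypo WT female 471, and all 13 mice with both tissues showed it. Nedd4, which acts on growth factor receptors and glutamate receptors, ranged from 565 to 796 CPM in the PFC (median 614 CPM) and from 379 to 1003 CPM in the Hypo (median 840 CPM). It was lower in the PFC by 0.33 (log2 fold change −0.33, SE 0.104, edgeR adjusted p = 0.00552), and lower in 13 of 13 mice. Without Hypo WT female 471, whose Nedd4 was the only Hypo value below those of the PFC, the difference was −0.35 (SE 0.061). So 2 paralogs of nearly the same domain makeup differed between the tissues in opposite directions.

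Itch, known for the itchy mouse and its immune disease, and Wwp1 were not called over all libraries. Itch had 69.1 to 116 CPM in the PFC and 34.8 to 95.02 CPM in the Hypo, a difference of 0.26 (SE 0.122, edgeR adjusted p = 0.0582). Wwp1 had 54.2 to 108 and 30.5 to 76.1 CPM, a difference of 0.22 (SE 0.115, edgeR adjusted p = 0.0927). For these genes single libraries decided the call. Without Hypo WT female 471 Itch was higher in the PFC by 0.24 (SE 0.084, edgeR adjusted p = 0.0098) and Wwp1 by 0.20 (SE 0.080, edgeR adjusted p = 0.0236), which made 7 of 9 members called, where 72.9% of all genes were called. Both were also called without Hypo WT female 262 (edgeR adjusted p = 0.0257 and 0.0489), and Itch alone without PFC Ube3a2X male 402 (0.0498) or PFC WT female 395 (0.0389).

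Of the very large ligases only Huwe1 was called. Huwe1, an X-linked ligase whose variants cause intellectual disability, ranged from 350 to 557 CPM in the PFC (median 391 CPM) and from 247 to 854 CPM in the Hypo (median 606 CPM). It was lower in the PFC (log2 fold change −0.48, SE 0.126, edgeR adjusted p = 0.00121), in 13 of 13 mice, by 0.15 to 1.18 on the log2 scale. Without Hypo WT female 471 its difference was −0.50 (SE 0.087). Hectd4 was at 237 to 369 CPM in the PFC and 139 to 411 CPM in the Hypo, and the difference of −0.14 (95% interval −0.38 to 0.10) was not called. Herc1 was at 236 to 439 CPM and 89.5 to 429 CPM, and its difference of 0.10 had an interval of −0.21 to 0.40. Neither interval leaves 0 out, and both span differences in either direction. Without that Hypo library Hectd4 was at −0.15 (edgeR adjusted p = 0.0543) and Herc1 at 0.08 (edgeR adjusted p = 0.439), again without a call.

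**Figure D2:**
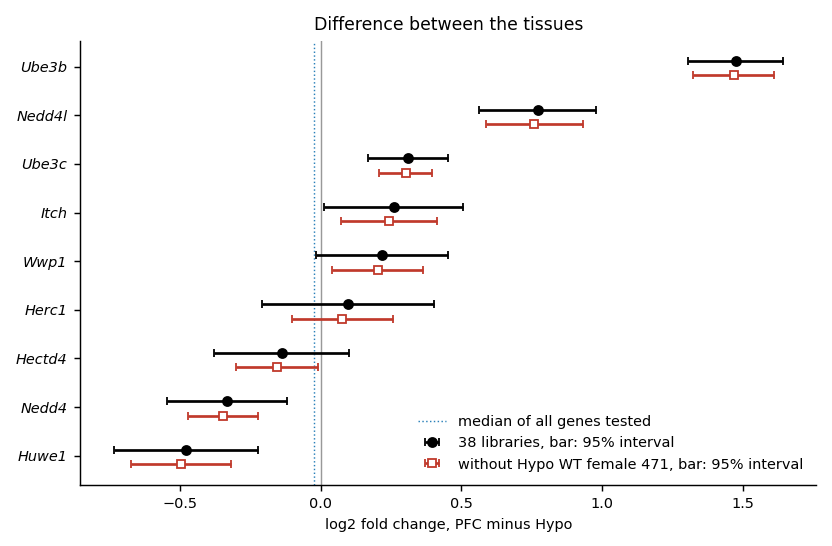
Difference between the tissues for the 9 members as the log2 fold change of PFC minus Hypo, with bars for the 95% interval. Circles use all 38 libraries, squares leave out Hypo WT female 471, and the dotted line is the median of all genes tested (−0.02). The intervals of Ube3b, Nedd4l, and Ube3c lie above 0 and those of Nedd4 and Huwe1 below 0 in both fits. The interval of Itch lies above 0 in both as well, although its adjusted p passed the threshold in the second fit alone.

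The sequences before the transcription starts of Ube3b and Huwe1, the members with the largest difference in each direction, are shown to give the starting regions of these genes. They are the 250 bases before the start given by RefSeq, from its table of build GRCm38.p6. This start is not that of the GENCODE models used for the gene spans, so the window of Huwe1 lies within its GENCODE span and that of Ube3b reaches past the GENCODE start. Both are printed from the plus strand, with capitals for the GC box, the letters GGGCGG or their reverse complement CCGCCC.

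Ube3b, chr5:114380370-114380619: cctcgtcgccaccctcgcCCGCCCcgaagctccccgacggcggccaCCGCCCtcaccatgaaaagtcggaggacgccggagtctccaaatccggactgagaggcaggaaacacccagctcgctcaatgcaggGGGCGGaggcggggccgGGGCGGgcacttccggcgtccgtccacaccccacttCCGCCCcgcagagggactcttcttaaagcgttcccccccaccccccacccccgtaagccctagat

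Huwe1, chrX:151803032-151803281: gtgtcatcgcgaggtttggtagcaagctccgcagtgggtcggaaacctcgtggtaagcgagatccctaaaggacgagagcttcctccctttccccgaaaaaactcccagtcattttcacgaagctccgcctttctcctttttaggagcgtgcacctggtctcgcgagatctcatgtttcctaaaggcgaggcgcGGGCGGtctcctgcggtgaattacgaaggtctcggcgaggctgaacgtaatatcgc

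The window of Ube3b held 5 GC boxes, 25 CpG dinucleotides, and 69.6% G and C, and that of Huwe1 1 GC box, 23 CpG dinucleotides, and 55.6% G and C. At least 1 GC box was found in 32.7% of the 32851 windows of this length in the table, and the median window had 52.4% G and C. Neither window held the TATA box searched (TATAAA on either strand, found in 12.4% of windows). The table held windows for 6 of the 9 members. Matches of letters describe these windows and not the binding of a factor.

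The second comparison was the one the question turns on, Ube3a2X against WT within each tissue, fitted with RIN and 2 surrogate variables and averaged over the sexes. None of the 9 members was called in the PFC, where edgeR called 0.0156% of all genes, and none reached an unadjusted p under 0.05, as 7.46% of all genes did. None was called in the Hypo either, where 0.00716% of all genes were called and 5% had an unadjusted p under 0.05, again with no member among them. The log2 fold changes of the members spanned −0.07 (Herc1) to 0.06 (Ube3b) for the PFC, with 0.80 as the smallest edgeR adjusted p. They spanned −0.06 (Nedd4) to 0.06 (Nedd4l) for the Hypo, with 0.95 as the smallest. Ube3a itself changed by 2.32 (SE 0.151) and 1.97 (SE 0.175) on the same scale.

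In this fit no 95% interval of a member reached past 0.21 on the log2 scale for the PFC, and none past 0.15 for the Hypo, or past 0.17 without WT female 471. These limits hold for this model alone. With RIN as the only covariate the Hypo values themselves reached 0.28 for Herc1 (SE 0.186, edgeR adjusted p = 0.60), 0.26 for Hectd4 (SE 0.148), and 0.24 for Huwe1 (SE 0.148), none of them called. Nedd4 in the PFC had bounds of −0.06 to 0.07, which stand for 0.956 to 1.05-fold, and Ube3b in the Hypo of −0.05 to 0.08. In CPM, PFC Nedd4 ranged from 574 to 694 in WT (median 607) and from 565 to 796 in Ube3a2X (median 615), and PFC Huwe1 from 350 to 458 (median 397) and from 363 to 557 (median 386). The ranges of the genotypes overlapped for all members, and how many of all genes did so was not counted. In the Hypo the median of every member was higher in Ube3a2X, with WT female 471 among the WT libraries. Hectd4 had 352 against 317 CPM, Itch 82.5 against 75.5 CPM, and Nedd4 841 against 832 CPM. Without Hypo WT female 471 the Hypo fold changes ran from −0.03 to 0.07, 8 of 9 above 0, and none was called (smallest edgeR adjusted p = 0.83).

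The third comparison split the genotype effect by sex, since the study sampled both sexes of each genotype. In the PFC of males 1 member, Ube3b, was higher and 1, Herc1, lower in Ube3a2X at an unadjusted p under 0.05, where 18.6% of all genes had such a p, and none was called, where 0.117% of all genes were. In the PFC of females none was called (0.0078% of all genes) and none had an unadjusted p under 0.05 (14.5%). Ube3b carried the largest value in each sex. Its PFC values in WT males were 110, 134, 115, 130, and 146 CPM and in Ube3a2X males 167, 136, 171, 171, and 151 CPM. In WT females they were 164, 124, 152, 153, and 123 CPM and in Ube3a2X females 116, 118, 127, 136, and 110 CPM. So 4 of 5 Ube3a2X males lay above all WT males, while 3 of 5 WT females lay above all Ube3a2X females, and the remaining libraries overlapped.

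For Ube3b the fitted effect of genotype in the PFC was 0.31 in males (SE 0.099, unadjusted p = 0.00563, edgeR adjusted p = 0.143) and −0.20 in females (SE 0.110, edgeR adjusted p = 0.394). The difference between the sexes was 0.51 (SE 0.145, 95% interval 0.21 to 0.82), with an edgeR adjusted p of 0.0862, which did not pass the threshold. No gene of the PFC was called for this interaction by edgeR (0%), and 25.6% had an unadjusted p under 0.05, so an unadjusted p for Ube3b of 0.00243 stands in a table with many small values. This share depended on the model. It was 3283 of 12824 genes here, and 447 genes with the components of the quality measures as covariates. DESeq2 called Ube3b (adjusted p = 0.027) and 887 genes in all. Over the alternatives the interaction of Ube3b kept its sign, from 0.16 with the components of the quality measures as covariates to 0.61 without PFC WT female 93, with an adjusted p between 0.0207 and 0.893. It was called without PFC Ube3a2X female 462 (0.59, edgeR adjusted p = 0.0432), Ube3a2X male 253 (0.55, edgeR adjusted p = 0.0333), or WT female 93. Without WT female 397 it was 0.30 (edgeR adjusted p = 0.791).

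Markers and RNA quality moved with these groups and are given beside the values. The 5 excitatory neuron genes summed to 6903 to 10677 CPM in the PFC of Ube3a2X males and to 5326 to 7506 CPM in Ube3a2X females, and to 5607 to 7154 CPM in WT males and 5703 to 8011 CPM in WT females. The medians of this sum were 7883 CPM in Ube3a2X males, 6046 CPM in Ube3a2X females, 6821 CPM in WT males, and 6955 CPM in WT females. The microglial list of 6 genes summed to 377 to 441 CPM in Ube3a2X males and 285 to 394 CPM in Ube3a2X females, and to 293 to 398 CPM in WT males and 294 to 432 CPM in WT females. The median of each sum was highest in Ube3a2X males, and the groups overlapped. The medians of the inhibitory neuron, astrocyte, oligodendrocyte precursor, and endothelial and mural lists were also highest in Ube3a2X males. Those of the oligodendrocyte and cortical neuron lists were highest in Ube3a2X females. The share of intronic bases was 3.10 to 4.004% in Ube3a2X males and 4.40 to 5.85% in WT males, without overlap, and 3.06 to 4.29% in Ube3a2X females and 3.27 to 4.92% in WT females. Over the 20 PFC libraries the Spearman correlation of Ube3b with this share was −0.40. The median RIN was 7.3 in Ube3a2X females against 8.2 in WT females, and 7.4 in Ube3a2X males against 7.8 in WT males. With the components of the quality measures as covariates the male value of Ube3b was 0.04 in place of 0.31. What part the markers have in the values of Ube3b was not tested.

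Hectd4 was the other member whose PFC interaction had an unadjusted p under 0.05 (0.026). Its fold change was 0.13 among males and −0.17 among females, and the difference was 0.31 (SE 0.128, edgeR adjusted p = 0.148). With the quality components as covariates the difference was −0.01 (edgeR adjusted p = 0.997) and the male value −0.09, and over the other alternatives the difference ran from 0.13 to 0.37. In the PFC WT male 245 had the lowest Hectd4 of the tissue, 237 CPM, against 290 to 335 CPM in the other WT males. The values of WT females were 322, 303, 329, 354, and 369 CPM and those of Ube3a2X females 296, 296, 289, 288, and 339 CPM, so the Ube3a2X females lay low but overlapped. Herc1 in the PFC went the other way, −0.15 in males (SE 0.069, unadjusted p = 0.0392, edgeR adjusted p = 0.246) and 0.02 in females. Its difference between the sexes was −0.18 (edgeR adjusted p = 0.28), and −0.35 (edgeR adjusted p = 0.0325) without WT female 93 but 0.02 (edgeR adjusted p = 0.963) without WT female 397. The remaining 6 members had interactions from −0.15 (Nedd4l) to 0.18 (Huwe1), none with an unadjusted p under 0.05. Of the 9 members 4 had a value above 0 and 5 below, with a median of −0.07, and the median of all genes was −0.02.

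In the Hypo the interactions of the members spanned −0.12 (Nedd4) to 0.14 (Herc1), 5 of 9 above 0. Without WT female 471 they spanned −0.03 (Nedd4) to 0.15 (Herc1), 8 of 9 above 0, and none was called. With all libraries 1 member, Herc1, had an unadjusted p under 0.05 (0.14, SE 0.064, edgeR adjusted p = 0.726), where 6.54% of all genes had one, and none was called (0% of all genes). In Hypo males Nedd4 (−0.12, SE 0.051) and Hectd4 (0.12, SE 0.053) had an unadjusted p under 0.05, as did 8.5% of all genes, with an edgeR adjusted p of 0.57 for both, and none was called (0% of all genes). Leaving out Hypo WT female 471 changed the fitted values also in males, and Nedd4 then stood at −0.05 (unadjusted p = 0.287) and Hectd4 at 0.14 (unadjusted p = 0.0728), while Herc1, at 0.10 with all libraries (unadjusted p = 0.0509), stood at 0.12 (unadjusted p = 0.0479). Itch moved from −0.04 to 0.11 (unadjusted p = 0.0816), and 8 of 9 male values were then above 0, against 5 of 9 with all libraries. The interaction of Herc1 had an unadjusted p of 0.0552 without that library. In Hypo females no member was called (0.00716% of all genes) or had an unadjusted p under 0.05 (3.09%). Their fold changes ran from −0.04 to 0.06, and from −0.04 to 0.03 without WT female 471.

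**Figure D3:**
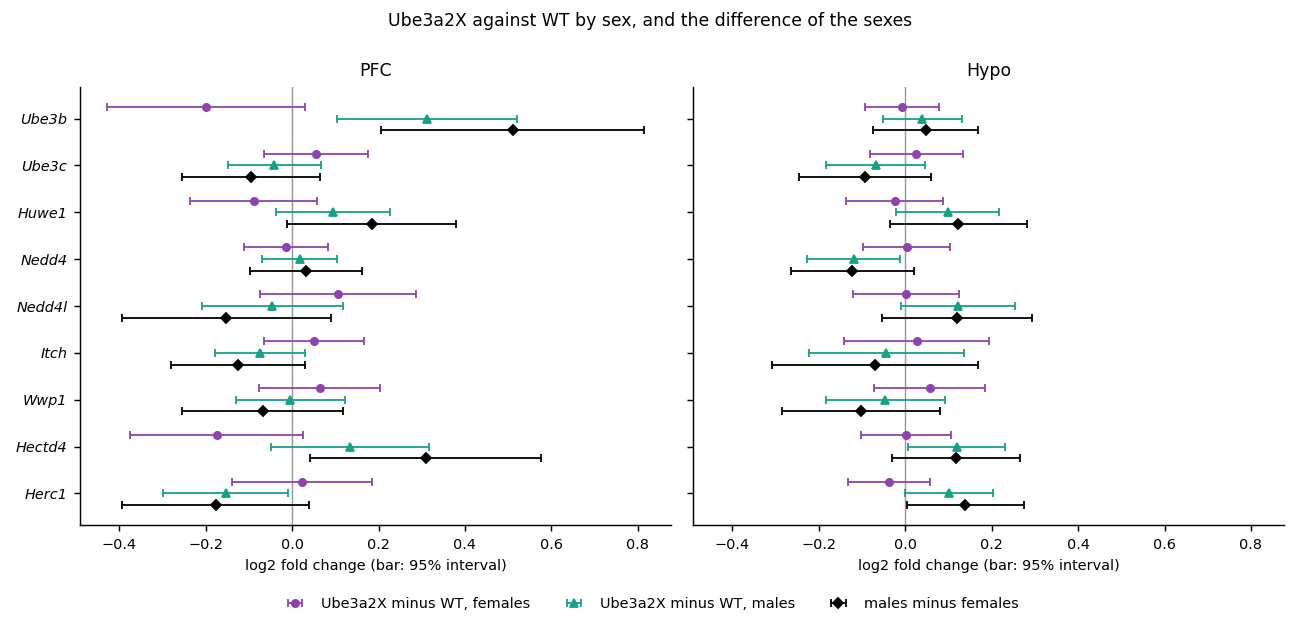
Fold change of Ube3a2X against WT in females (circles) and males (triangles) and the difference of the sexes (diamonds) on the log2 scale, with 95% intervals, for the PFC and the Hypo. For Ube3b in the PFC the male value is 0.31, the female value −0.20, and the difference 0.51. In the Hypo all values lie between −0.12 and 0.14.

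**Figure D4:**
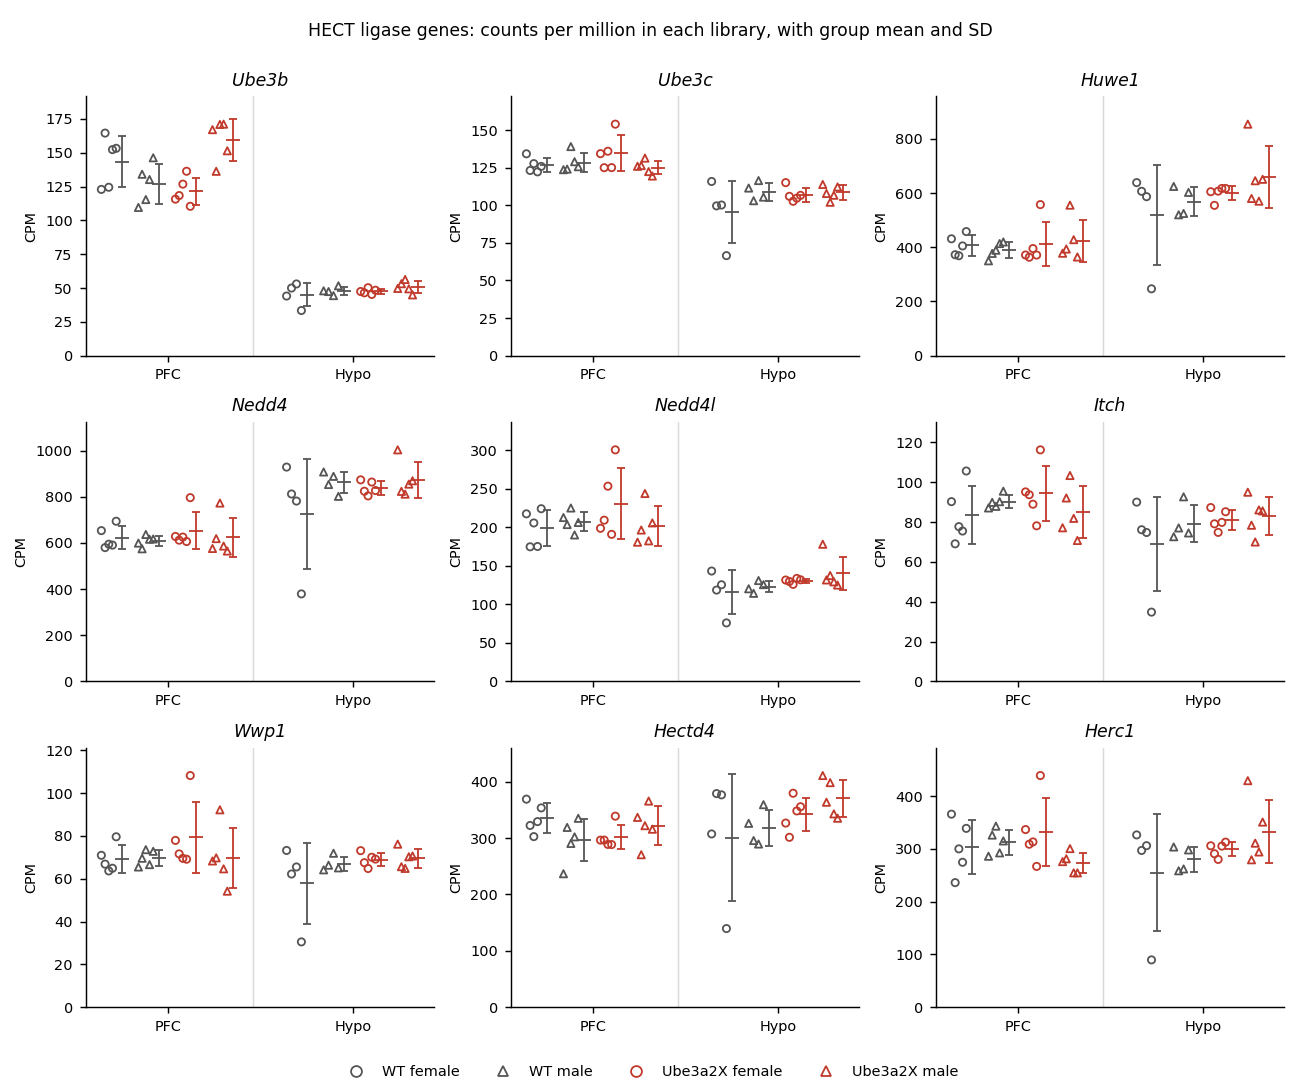
CPM of the 9 members in each library, with the mean and SD of each group beside its points. Each panel starts at 0. Circles are females, triangles males, grey WT, and red Ube3a2X. Ube3b and Ube3c do not overlap between the tissues, and the lowest Hypo point of every member is WT female 471.

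The fourth comparison asked whether the genotype effect differed between the tissues. None of the 9 members was called, as was no gene of the table (0%), and none had an unadjusted p under 0.05, where 8.66% of all genes had one. All 9 values were below 0, from −0.25 (Hectd4) to −0.01 (Wwp1), so Ube3a2X against WT was fitted lower in the PFC than in the Hypo for each of them. This shared sign did not hold under all alternatives. Wwp1 changed sign in 14 of 47 of them and Ube3c in 4. Without Hypo WT female 471, a WT library in which all members were low, 7 of 9 values were above 0, with a range of −0.11 to 0.12. The median of all genes was 0.01 with all libraries.

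A graded response was looked for among the Ube3a2X mice, whose Ube3a level differed by more than 2-fold within each tissue. The slope of each member on the log2-CPM of Ube3a was fitted over 10 libraries per tissue with sex and RIN in the model. No member was called in either tissue, and neither was any gene (0% in both). No member had an unadjusted p under 0.05, against 4.85% of all genes for the PFC and 3.87% for the Hypo. Slopes in the PFC ran from −0.22 (Ube3b, 95% interval −0.51 to 0.07) to 0.14 (Herc1) log2 units per log2 unit of Ube3a. Single libraries moved them. Without Ube3a2X female 468, with the highest Ube3a, 7 of 9 were below 0, with Wwp1 at −0.39 and Huwe1 at −0.38, while without Ube3a2X male 258 8 of 9 were above 0, with Nedd4l at 0.63, Herc1 at 0.40, and Huwe1 at 0.33. In the Hypo all 9 were above 0, from 0.02 (Wwp1) to 0.22 (Huwe1, 95% interval −0.03 to 0.47). The highest Ube3a of that group, 1693 CPM, was in Ube3a2X male 238, which also had the highest Hypo value of 7 members, Huwe1 (854 CPM), Nedd4 (1003 CPM), Nedd4l (178 CPM), Itch (95.02 CPM), Wwp1 (76.1 CPM), Hectd4 (411 CPM), and Herc1 (429 CPM). This library also had the highest share of intronic bases of the tissue (9.52%, against 3.88 to 8.41% in the other Hypo libraries), whose part in the slopes was not tested. How many of all genes were highest in this library was not counted. The shared sign did not hold without it. Without Ube3a2X male 238 7 of 9 slopes were below 0, and they ran from −0.12 (Herc1) to 0.17 (Ube3b), with Huwe1 at −0.03. With 10 libraries the intervals are wide, and a slope of the size of these values could not be told from 0.

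Sex was compared over both genotypes. In the PFC no member was called (0.078% of all genes) or had an unadjusted p under 0.05 (8.48%), and the values of male minus female ran from −0.03 to 0.09. In the Hypo none was called either, where 2.06% of all genes were, and 1 of 9, Herc1, had an unadjusted p under 0.05, where 18% of all genes had one. Herc1 was at −0.10 (SE 0.033, unadjusted p = 0.0097, edgeR adjusted p = 0.136), and at −0.11 (edgeR adjusted p = 0.0976) without WT female 471. X-linked Huwe1 stood at 0.02 for the PFC (95% interval −0.08 to 0.12) and at −0.06 for the Hypo (95% interval −0.15 to 0.02), or −0.09 (unadjusted p = 0.0409, edgeR adjusted p = 0.233) without that library.

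Most pairs of members varied together from library to library, and Ube3b and Hectd4 followed the others less in the PFC. Over the 18 Hypo libraries all 36 pairs of members had a correlation of log2-CPM above 0, with a median r of 0.90. One library weighed on this, and without WT female 471 27 of 36 were above 0 and the median was 0.47. Over the 20 PFC libraries 29 of 36 pairs were above 0, with a median of 0.63. The median was 0.50 without Ube3a2X female 468 and 0.41 without both this library and Ube3a2X male 258. The lowest were pairs with Ube3b, −0.62 with Herc1 and −0.55 with Ube3c. Hectd4 had r from −0.01 (with Nedd4l) to 0.52 (with Ube3b). Pairs of other genes were not compared. Libraries share their depth, RNA quality, and cell makeup across genes, so these correlations describe the libraries and carry no test. The PFC library of Ube3a2X female 468 was the highest of the tissue for 7 members, Ube3c (154 CPM), Huwe1 (557 CPM), Nedd4 (796 CPM), Nedd4l (301 CPM), Itch (116 CPM), Wwp1 (108 CPM), and Herc1 (439 CPM), and the lowest of its group for Ube3b (110 CPM). How many of all genes were highest in this library was not counted. It had the fewest reads of the PFC (36.9 M), the strongest loss of 5′ coverage (a median 5′ to 3′ ratio of 0.265, against up to 0.749 in the tissue), and the highest Ube3a of all libraries (2249 CPM).

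**Figure D5:**
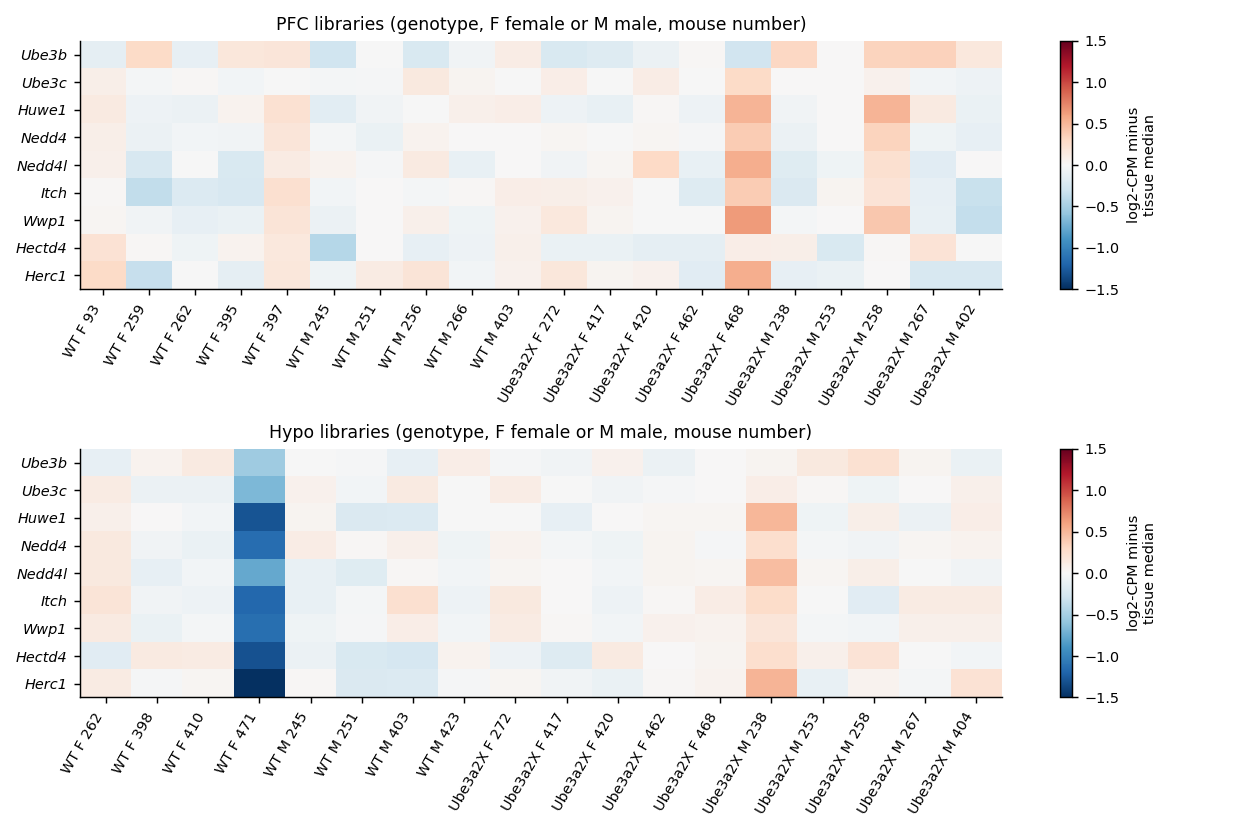
Log2-CPM of each member minus the median of its tissue in every library, from −1.5 (blue) to 1.5 (red). Columns are libraries, named by genotype, sex (F or M), and mouse. Hypo WT female 471 is blue in every row, and PFC Ube3a2X female 468 is red in all rows except Ube3b.

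The genes most like the members were found by the Pearson r of their log2-CPM with the mean z-score of the 9 members in each tissue. In the PFC they were Ank2 (r = 0.97), which encodes the large scaffold ankyrin-B, Tcp11l1 (0.96), Ralgapb (0.96), Tanc2 (0.95), and Gnptab (0.95), over 20 libraries. In the Hypo they were Atrn, Dock4, Pdpr, Epg5, and Arhgef12, all with r of at least 0.99 over 18 libraries, WT female 471 among them. Without that library Cacnb2 (0.94), Pdpr (0.94), Acaca (0.94), Kif1b (0.93), and Chd9 (0.93) came first, and Epg5 was at 0.86.

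The rest of the HECT class gives the setting. Of the 17 other HECT genes 10 were called higher and 3 lower in the PFC than in the Hypo, and 5 of 17 had no overlap between the tissues, against the shares of all genes given above (32.8%, 35.6%, and 25.9%). The smallest p-values belonged to Hace1 (log2 fold change 1.11, SE 0.075, edgeR adjusted p = 3.40e-15), which guards cells against oxidative stress, Herc6 (1.69, SE 0.130), Arel1 (0.96, SE 0.094), and Herc3 (1.18, SE 0.117). None of the 17 was called for genotype in either tissue. In the PFC the smallest p was that of Herc6 (−0.19, edgeR adjusted p = 0.668) and in the Hypo that of Herc2 (0.07, edgeR adjusted p = 0.948). For the interaction in the PFC none was called, and 6 of 17 had an unadjusted p under 0.05, all with values below 0, where 25.6% of all genes had one. The strongest was G2e3 (−0.47, SE 0.139, edgeR adjusted p = 0.0881), followed by Hace1 (−0.27, edgeR adjusted p = 0.115). The members Ube3b and Hectd4 had values of the opposite sign. For sex in the Hypo 1 of 17 was called, where 2.06% of all genes were. This was Hecw2, lower in males (−0.19, SE 0.039, edgeR adjusted p = 0.0176). All 17 values of genotype by tissue were below 0, as were those of the 9 members. Without Hypo WT female 471 the calls for tissue were again 10 and 3, genotype again had none, and 10 of the 17 values of genotype by tissue were below 0. For sex in the Hypo Hecw2 was then at −0.20 (edgeR adjusted p = 0.0257), and Smurf2 was called higher in males (0.12, edgeR adjusted p = 0.0311). In that fit 2.87% of all genes were called.

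The partners of the class were the adaptors Ndfip1 and Ndfip2, which bring Nedd4-family ligases to membranes, the activating enzymes Uba1 and Uba6, E2 enzymes, and genes that encode ubiquitin. Of the 12 partners 5 were called higher and 4 lower in the PFC, also without Hypo WT female 471, against 32.8% and 35.6% of all genes. Ndfip2 (0.59, SE 0.077), Ube2d3 (0.30, SE 0.057), and Ube2d1 (0.38, SE 0.076) were among those higher, with edgeR adjusted p from 3.20e-08 to 4.35e-05. None of the 12 was called for genotype, where Rps27a in the PFC (0.26, edgeR adjusted p = 0.435) and Ube2d1 in the Hypo (0.08, edgeR adjusted p = 0.948) had the smallest p. For the interaction in the PFC none was called, and 5 of 12 had an unadjusted p under 0.05, all below 0, against 25.6% of all genes. Ndfip1 (−0.52, SE 0.131) and Ndfip2 (−0.40, SE 0.107) came first, each with an edgeR adjusted p of 0.0862, while Nedd4 itself was at 0.03 (95% interval −0.10 to 0.16). Neither list had a call for the slope on Ube3a or for genotype by tissue.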

How the data were processed

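Per the labels and the study's methods, paired-end stranded mRNA libraries were prepared, and the authors aligned reads with STAR to mm10 (GRCm38) and counted them with featureCounts on Gencode v24. Tool versions and the strand setting of the counting are not given in the sources used here. The deposited values are the raw count per gene, without normalization. The authors also deposited Picard measures, of which base composition is a fraction, coverage evenness and 5′ to 3′ bias are a ratio, AT dropout (and RIN beside it) is a score, and aligned reads are a count.

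The members and lists were chosen with earlier results of these data known. Genes with under 100 reads in at least 2 libraries were dropped per tissue, and edgeR 4.0.16 (TMM, robust glmQLFit, glmQLFTest) was run in R 4.3.3. Each tissue had its 4 groups of genotype and sex, RIN, and 2 surrogate variables (sva 3.50.0). The fit across tissues had 8 groups and RIN, with genes kept in either tissue. The slope used the 10 Ube3a2X libraries of a tissue. Adjusted p-values are Benjamini-Hochberg values over all genes tested, and calls were made under 0.05. CPM for log2 values had a prior count of 2. The removal of the 15% of genes with the lowest variance, a step of the study, was an alternative here, since it drops genes by their spread (Ube3c in the PFC). Further alternatives were DESeq2 1.42.0, limma 3.58.1 (voom), other factors, filters, and covariates, a correction for GC content and length, the mouse as a block, and leaving out each library. Coordinates and exon lengths came from GENCODE vM21, which held 53905 of the 54165 genes. Named are all members, Ube3a, the 5 genes most like the members in each tissue, and from the other lists up to 4 called genes per contrast or else the 2 with the smallest p. One gene that this rule names is not reported here. Simulated counts without outlying libraries were put through the fits for genotype in each tissue and for tissue. The sex interaction and the slope were not simulated. Figures were drawn with matplotlib 3.10.9.

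Replicates are separate mice. Over 72 pairs of libraries from the same group, squared differences in counts exceeded sampling noise by 2.54 to 91.5 times, so none was treated as a duplicate. Numbers of mice pair the tissues, because 13 mice gave both. The deviations of a mouse's PFC and Hypo libraries from their group means correlated above 0.1 in 3 of 13 mice (median −0.04, range −0.46 to 0.35). With the mouse as a fixed block in these mice, 2 of 9 members were called for tissue in place of 5. Of all genes 6047 of 14508 were called, in place of 9725 of 14219.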

Additional observations from a re-analysis of the deposited data

Results flagged for a closer look

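Each member was looked at in each of the 8 groups for a library whose distance from its nearest neighbour took up most of the range of the group, and 10 of 72 such groups passed the critical value, where chance passes about 1 in 20, or 3.6. In PFC Ube3a2X female 468 this held for 4 members, with the highest value of its group in Huwe1 (557 CPM), Nedd4 (796 CPM), Wwp1 (108 CPM), and Hectd4 (339 CPM). In PFC Ube3a2X male 258 it held for Nedd4 (772 CPM, the highest). In Hypo WT female 471 it held for Huwe1 (247 CPM) and Herc1 (89.5 CPM), both the lowest. In Hypo Ube3a2X male 238 it held for Huwe1 (854 CPM) and Nedd4l (178 CPM), both the highest. In Hypo Ube3a2X female 417 it held for Huwe1 (555 CPM, the lowest), although the next lowest value of this group was 605 CPM. The same member can stand out in several groups, and 4 of the 10 were Huwe1. Values of members within a library are not independent of each other.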

How the results depend on the processing

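For tissue, 5 of 9 members were called, and DESeq2 and the RLE factors called 6 (9839 and 9711 of 14219 genes, against 9725). With a correction for GC content and length 8 were called (Itch, Wwp1, and Herc1 in addition) and 10582 genes. With the replicate block fixed in the 13 mice that gave both tissues 2 were called, and Ube3c (0.27, edgeR adjusted p = 0.0562), Nedd4 (−0.38, adjusted p = 0.0607), and Huwe1 (−0.39, adjusted p = 0.135) were not. This fit used 26 of the 38 libraries and called 6047 of 14508 genes. With the mouse as a random block over all libraries 5 members and 9652 genes were called. Leaving out each library gave 5 to 7 members, 7 without Hypo WT female 262 or 471 and 6 without PFC Ube3a2X male 402 or PFC WT female 395. For the PFC interaction 0 members were called, 1 (Ube3b) by DESeq2, and 0 to 2 without each library. Calls were made without Ube3a2X female 462, Ube3a2X male 253, and WT female 93 (Ube3b, with Herc1 also in the last, −0.35, adjusted p = 0.0325). Over all genes this interaction had 0 calls, 887 by DESeq2 and 0 to 1965 without each library. For the other 12 comparisons no member was called under any alternative run. Of 3595 member values under alternatives 296 changed sign, and none of these was called in either fit. The causes were not tested.

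The number of all genes called moved more than those of members. By DESeq2 it was 31 in place of 2 for genotype in the PFC, 7 in place of 1 in the Hypo, 345 in place of 15 for PFC males, and 760 in place of 288 for sex in the Hypo, where RIN as the only covariate gave 18. For the comparisons not named here it was 0 to 54. For tissue the count was 9725, and 15690 with no filter on low counts, where the median of all genes was −0.14 in place of −0.02. The 4 or 5 mice per group and sex limit the precision to that of the intervals given.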
